A study of Mus musculus with 12 samples.

Results

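The comparison described here is that of Stat5 knockout with control blood cells on the arrays whose titles end in a minus sign. The arrays were chosen by title alone, and 6 of the 12 arrays of the series belong to it, 3 knockout and 3 control. RNA of mouse blood cells was hybridised to one-colour Affymetrix mouse arrays, 1 array per sample. Knockout mice lacked both Stat5a and Stat5b in their blood cells, and control mice kept both genes. According to their protocols, the cells of the minus arrays received no CMP and those of the 6 plus arrays, 3 knockout and 3 control, did. CMP stands in the titles of arrays of both signs, so the labels do not settle whether it names something given to the cells or the cells themselves, and the sign is used below only as a name. The labels used here give no strain, age, deleted exons, Cre line or kind of blood cell, and do not say whether the arrays of a group came from separate animals. A p-value here thus reflects no more than the spread among the 12 arrays of the series, which may be technical.

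STAT5A and STAT5B are closely related transcription factors that wait in the cytoplasm until a JAK kinase bound to a cytokine receptor phosphorylates them. They then dimerise, enter the nucleus and bind a short palindrome near genes such as Cish and Socs2, whose products damp the same receptors. In blood formation they act downstream of erythropoietin, thrombopoietin, interleukin 3 and GM-CSF, and are known for supporting survival and growth of progenitors, red cell precursors and mast cells. Cells without a cytokine signal hold most of their STAT5 inactive.

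The titles come in 3 forms, each with 1 knockout and 1 control minus array, and the arrays were compared as 3 pairs by form. Pair A is CMPKO- against CMPCTL-, pair B is KC- against CC-, and pair C is KOCMP- against CTLCMP-. Values below are always given in the order A, B, C. The treatment protocol of KC- names it a control, whereas its title form gives it as the knockout of pair B. It is therefore written as the array titled KC-. Values under the protocol's reading are given for some results only, and others may change with it too. Across all 45101 probe sets, the 2 arrays of a pair correlated at 0.984, 0.956 and 0.989, and the arrays of pair B correlated with the others of their own group at 0.892 to 0.895. The pair B arrays also differed in the log2 ratio of 3' to 5' signal for beta-actin. It was 4.30 in the control and 4.73 in the knockout, against 0.25 to 0.79 in the other 4 arrays. The highest signals of pair B were 86625 and 88665, against 19105 to 22017 in the others. The cause of these differences was not tested. Signals for the leukocyte antigen Ptprc (6938 to 9414), the granule enzyme Mpo (16836 to 56983), the progenitor antigen Cd34 (2096 to 8919) and the stem cell factor receptor Kit (1356 to 6762) were high in all 6 arrays. The T cell gene Cd3e (8.43 to 33.6) and the liver gene Alb (29.4 to 86.8) lay below the median of each array, which was 59.7 to 88.1. Other lymphocyte genes were brighter. Of 13 T cell markers on the array, 5 were above the level filter used for testing, among them Zap70 (307 to 651). Of 13 B cell markers 4 were, among them Ighm (2171 to 17894).

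Stat5a and Stat5b were much lower in the knockout arrays, and no other gene differed past the threshold. The signal, a probe set's brightness as the deposited table gives it, was 2177, 1227 and 1753 in the controls for Stat5b (chr11:100780731-100859004, GRCm38.p6) and 15.8, 32.3 and 82.8 in the knockouts. These knockout signals were 0.727%, 2.63% and 4.72% of their paired controls, and all 3 lay far below every control. On the scale log2(signal + 32), used for all differences below, the pair differences were -5.53, -4.29 and -3.96, and their mean was -4.59 ± 0.33 (SE, 3 pairs; adjusted p = 0.000107, limma with Benjamini-Hochberg adjustment). The gene beside it, Stat5a (chr11:100859351-100885169), gave 1081, 1316 and 1172 in the controls and 34.3, 50.1 and 90.1 in the knockouts, or 3.17%, 3.8% and 7.69% of control. Its mean difference was -3.80 ± 0.29 (limma adjusted p = 0.000107). For both genes pair C kept the highest knockout signal, and the array titled KC- lay on the knockout side with the other knockouts. Read as a control, as its protocol has it, it left 0 genes past the threshold, with Stat5b at -4.02 and Stat5a at -3.01 (limma adjusted p = 0.999 for both).

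Each gene has a second probe set, and both of these were dimmer and lower in the knockouts as well. The second Stat5a probe set read 87.7, 73.8 and 157 in the controls and 14.7, 1.61 and 17.9 in the knockouts. The second Stat5b probe set read 142, 145 and 140 against 61.3, 48 and 58.3, so that 43.3%, 33.1% and 41.6% of the control signal was left, a larger share than in the bright Stat5b probe set. The groups did not overlap in any of the 4 probe sets. The labels used here do not say which exons were deleted, so how these probe sets lie to the deleted part is not analysed here.

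**Figure D1:**
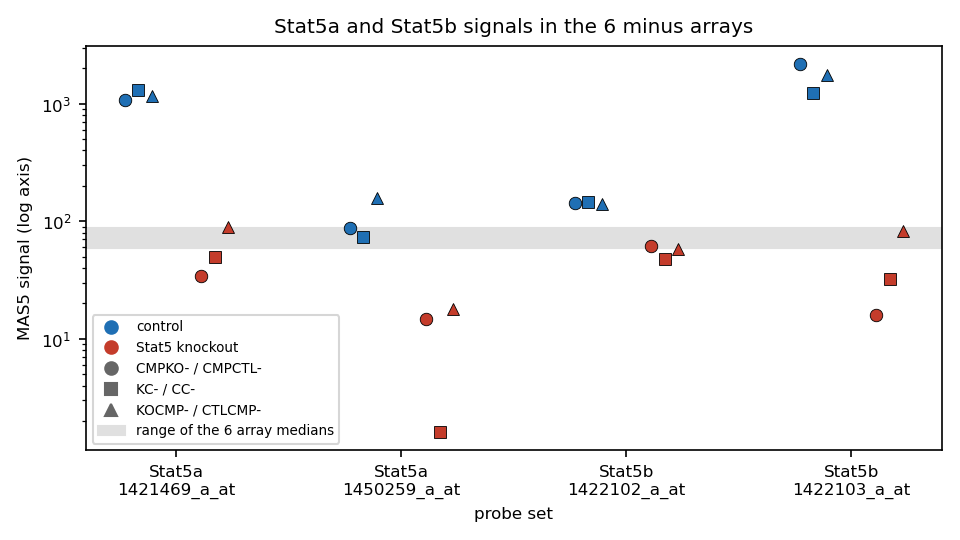
Signal (log axis) of the 2 Stat5a and 2 Stat5b probe sets in each of the 6 minus arrays. Blue points are controls and red points knockouts, the point shape gives the pair, and the grey band spans the 6 array medians (59.7 to 88.1). In every probe set all 3 knockout arrays lie below all 3 controls.

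Outside these 2 genes the knockout and control profiles lay close together. Of 10215 autosomal genes tested, 2 passed an adjusted p of 0.05 (0.0196%), both lower in the knockout, and 0 were higher. The third smallest adjusted p rounded to 1, so every other gene named below has a limma adjusted p of 1 after rounding. At an unadjusted p under 0.05 there were 244 genes (2.39%), 153 lower (1.5%) and 91 higher (0.891%), where 5% of the genes tested would be 511. The 244 became 65 without CC-, 145 without KC-, 387 without CTLCMP- and 130 without pair A. They became 125 with KC- read as a control and 755, which is above 511, in the paired fit of the 6 minus arrays alone. Whether the count falls below or above 511 thus depends on the fit. Centring each array on its median turned the split to 150 higher and 100 lower. The median difference over all genes was -0.01, the middle 90% ran from -0.44 to 0.39, and 99.7% lay within 2-fold. The median SE was 0.25, and for 8416 genes (82.4%) the 95% interval of the difference lay within 2-fold either way. The median half-width of that interval was 0.55.

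The 3 pairs shared little of their differences beyond the deleted genes. Across genes, which are not independent replicates, the differences of pairs A and B correlated at a Pearson r of 0.22, those of A and C at 0.14 and those of B and C at 0.11; without Stat5a and Stat5b these were 0.20, 0.11 and 0.09. Pair B spread most, with 809 genes more than 2-fold apart against 137 in pair A and 48 in pair C. Of all genes, 3184 (31.2%) had the same sign in all 3 pairs, 1332 higher (13%) and 1852 lower (18.1%). In 441 genes (4.32%) the groups did not overlap, with all knockouts above all controls in 153 (1.5%) and below them in 288 (2.82%). More than 2-fold lower in all 3 pairs were 3 genes, Stat5a, Stat5b and Myh10, and 0 genes were more than 2-fold higher in all 3.

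**Figure D2:**
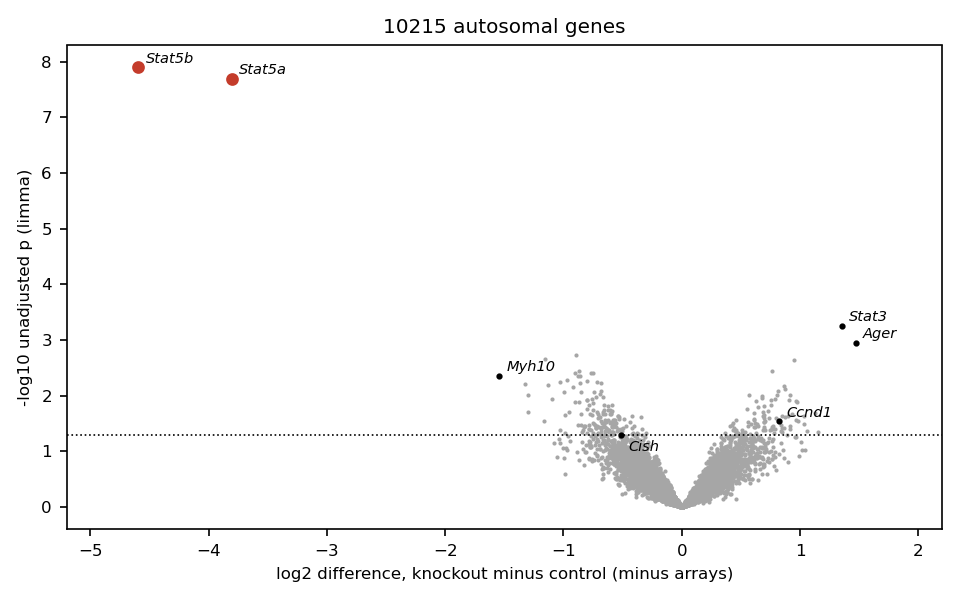
Log2 difference between knockout and control minus arrays (x axis) against -log10 of the unadjusted limma p (y axis) for 10215 autosomal genes, with a dotted line at the unadjusted threshold of 0.05. Stat5b and Stat5a, in red, stand apart at -4.59 and -3.80, and all other genes, including the labelled Stat3, Ager, Myh10, Ccnd1 and Cish, did not pass the adjusted threshold.

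Among the other members of the STAT family, Stat3 stood furthest from 0. Stat3 (chr11:100886806-100939594) encodes the factor that answers to interleukin 6 and G-CSF and is the next gene after Stat5a on the chromosome. Its probe set with the highest mean over the 12 arrays read 778, 496 and 1107 in the controls and 2718, 1566 and 1816 in the knockouts. Every knockout was above every control. The difference was 1.35 ± 0.29 (95% interval 0.72 to 1.98). Its unadjusted p was the smallest after those of Stat5a and Stat5b, and it did not pass the adjustment. The other 3 Stat3 probe sets did not share it, at 0.33, -0.31 and -0.30. Of these, the one at 0.33 read 1292, 541 and 1524 in the controls and 1743, 714 and 1733 in the knockouts, with overlapping groups. It was brighter than the first probe set in each minus control and dimmer in each minus knockout. The choice of the first by its mean was thus not independent of the difference. Stat4, which answers to interleukin 12, differed by 0.61 ± 0.38, mostly through pair B at 1.64 against 0.18 and 0.01. Stat6, which answers to interleukin 4, was at -0.07 ± 0.20, and Stat2, an interferon factor, at 0.02 ± 0.33. The sign of the Stat6 and Stat2 values depended on the processing or on single arrays.

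The genes around the deletion were examined for the same reason, in a window of 500 kb either side that was chosen after the Stat3 value was seen. Of 28 tested neighbours, 16 were higher and 12 lower, with a median absolute difference of 0.13 against 0.15 over all genes. Stat3 was the 1 neighbour with an unadjusted p under 0.05. The others ran from -0.43 for Jup, which encodes the junction protein plakoglobin, to 0.42 for Ghdc.

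**Figure D3:**
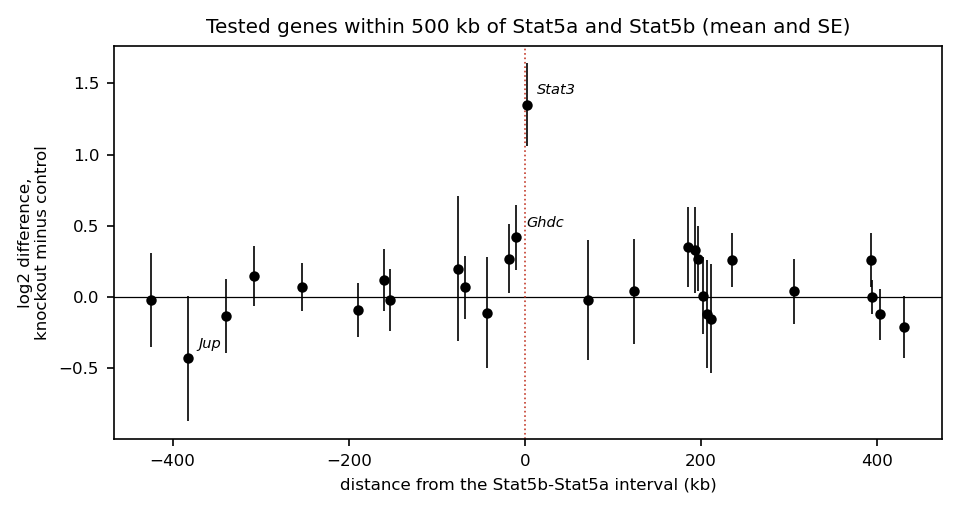
Log2 difference between knockout and control minus arrays (mean and SE, 3 pairs) for the 28 tested genes within 500 kb of Stat5b and Stat5a, by distance from that interval in kb. Stat3, right beside the interval, lies at 1.35, and the other genes lie between -0.43 and 0.42.

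The genes known to be controlled by STAT5 or to feed back on it lay on both sides of 0. The list holds genes that STAT5 is known to switch on and Bcl6, which it is known to hold down, so its median does not stand for 1 direction. Of 23 listed genes, 17 were above the level filter and 0 passed the adjusted threshold. Their median was 0.02 against -0.01 over all genes. At an unadjusted p under 0.05, 1 was higher and 1 lower, against 0.891% higher and 1.5% lower over all genes. In all 3 pairs 4 were higher and 2 lower, against 13% higher and 18.1% lower over all genes. Socs1, Il2ra, Lif, Igf1, Il10 and Tnfsf11 were below the filter. The consensus STAT5 binding palindrome, TTCNNNGAA, which reads the same on both strands, lay within 300 bases around an annotated start (250 before it, 50 after) in 684 of 8372 tested genes with such a window (8.17%), and more than 1 copy lay in 1 window in 37 (0.442%). Among 11 listed target genes with a window, Cish, Socs3 and Bcl6 held it. Bcl6 also held 3 copies within 99 bases at another annotated start (chr16:23981358-23981456), which are not printed for their length. The stretches are shown because the values of these 3 genes follow, with the palindromes in capitals (RefSeq, GRCm38.p6), and a match is a description of letters, not a bound site.
Cish, chr9:107296654-107296683, plus strand: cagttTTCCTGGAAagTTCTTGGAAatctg
Socs3, chr11:117969507-117969525, minus strand: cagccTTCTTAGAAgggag
Bcl6, chr16:23988957-23988975, minus strand: attagTTCTCAGAAttcca
The palindrome lay in the window of 8 of 120 genes that were lower at an unadjusted p under 0.05 (6.67%) and of 8 of 74 that were higher (10.8%).

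Cish encodes an SH2 protein that binds activated cytokine receptors, and its stretch holds 2 palindromes at the annotated start. Its signals were 577, 795 and 385 in the controls and 327, 446 and 387 in the knockouts. Pairs A and B were lower by 0.76 and 0.79 and pair C was level at 0.01, so the groups overlapped. The mean of -0.51 ± 0.24 had a 95% interval from -1.03 to 0.00. Socs3, which shuts off receptors that use gp130, read 158, 486 and 450 against 123, 730 and 285, a difference of -0.11 ± 0.48 with pair B opposite to pairs A and C. Bcl6, a repressor that STAT5 is known to hold down, read 234, 232 and 229 against 331, 280 and 336. All 3 Bcl6 knockout signals were above all controls, with pair differences of 0.45, 0.24 and 0.50 and a mean of 0.39 ± 0.37. Its 95% interval of -0.41 to 1.20, whose width also reflects the plus arrays, includes 0.

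Socs2, the other classical feedback gene, was dim throughout. Its brightest probe set read 47.8, 75.7 and 103 in the controls and 63.9, 50.7 and 87.1 in the knockouts, a difference of -0.10 ± 0.26, and none of its other 5 probe sets lay above an array median in any of the 6 arrays. The kinase gene Pim1 read 5971, 7018 and 6963 against 4909, 9963 and 6246, a difference of 0.02 ± 0.32 with both signs among the pairs. The cytokine gene Osm read 384, 636 and 666 against 540, 374 and 409, a difference of -0.31 ± 0.33, higher in pair A and lower in pairs B and C. Spry1, an inhibitor of growth factor signalling, was at -0.04 ± 0.30.

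The targets that act on survival and the cell cycle went both ways. Ccnd1, cyclin D1 of the G1 phase, was the 1 target higher at an unadjusted p under 0.05. It read 1220, 581 and 963 in the controls and 2032, 1476 and 1322 in the knockouts, with no overlap, a difference of 0.82 ± 0.33 (95% interval 0.10 to 1.54). Its other 2 probe sets were also higher in each pair, at 1.17 and 0.95 on average. Bcl2l1, which encodes the survival protein BCL-XL, was the 1 target lower at that level, with 1035, 1687 and 926 against 797, 953 and 730. Its difference was -0.50 ± 0.21 (95% interval -0.97 to -0.03), lower in all 3 pairs although the groups overlapped.

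Bcl2, a second survival gene, read 3227, 2667 and 2954 against 3808, 4347 and 3646, with all knockouts above all controls at 0.41 ± 0.29. Mcl1, another, was level at 0.05 ± 0.13. The cell cycle inhibitor Cdkn1a read 937, 719 and 871 against 1631, 1851 and 654, higher in pairs A and B and lower in pair C. The mean for Cdkn1a was 0.57 ± 0.33. The phosphatase gene Dusp5 was at 0.64 ± 0.63, carried by pair B at 1.63, and Id1, an inhibitor of helix-loop-helix factors, was at 0.29 ± 0.30. Myc differed by 0.15 ± 0.25, Ccnd2 by -0.07 ± 0.22 and Ccnd3 by -0.04 ± 0.50. The Ccnd3 pairs were -0.18, 0.03 and 0.02, and its SE also takes in the plus arrays. For Myc, Mcl1, Dusp5, Pim1, Ccnd2, Ccnd3, Socs2, Socs3 and Spry1 the sign changed with at least 1 array or pair left out, so no direction is given for them.

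**Figure D4:**
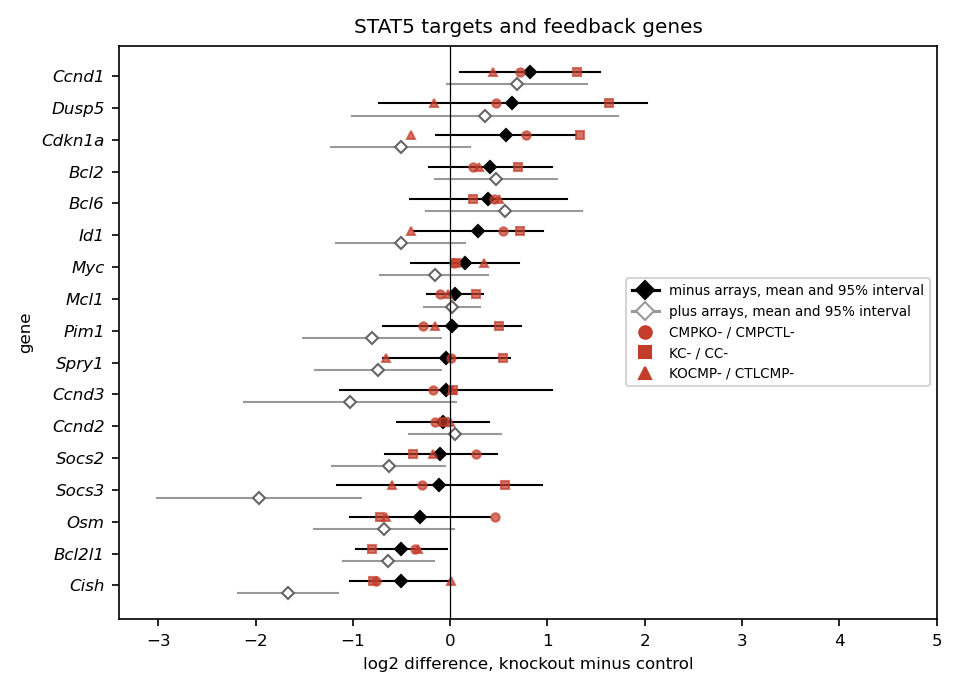
Log2 difference between knockout and control for the 17 tested STAT5 target and feedback genes. Black diamonds and bars are the mean and 95% interval of the 3 minus pairs, red points the single pairs by shape, and open diamonds and grey bars the mean and 95% interval of the plus arrays. The minus means lie on both sides of 0, from -0.51 for Cish to 0.82 for Ccnd1, and the plus values of Cish (-1.67) and Socs3 (-1.96) lie to the left of their minus values.

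The knockout difference of the target genes was set against that in the plus arrays, a separate 3 knockout and 3 control arrays of the same title forms. Stat5a and Stat5b were lower there by about as much, at -3.76 and -4.37. The median of the 17 targets was -0.51 in the plus arrays, where 6 were lower and 0 higher at an unadjusted p under 0.05, against a background over all genes of 9.77%, 5.41% lower and 4.36% higher. Cish in the plus controls read 2041, 4960 and 2446, above all 6 minus signals, and 833, 1110 and 777 in the plus knockouts, a difference of -1.67 ± 0.24. The Cish difference was less negative in the minus than in the plus arrays, by 1.15 ± 0.33 (limma adjusted p = 0.954). The Socs3 difference was also less negative in the minus arrays, by 1.85 ± 0.68 (limma adjusted p = 0.954).

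For Cdkn1a the minus and plus differences, 0.57 and -0.51, were 1.08 ± 0.46 apart (limma adjusted p = 0.954). Cish, Socs3 and Cdkn1a were the 3 of 17 tested targets with an unadjusted limma p under 0.05 for this contrast. The other targets did not reach it, among them Mcl1 (0.03 apart), Bcl2 (-0.06) and Ccnd1 (0.13). The dim Socs2 probe set that read 35.9, 48.4 and 36.7 in the minus controls and 21.6, 8.71 and 17.8 in the minus knockouts differed by -0.60 there and by -3.08 in the plus arrays. Over all genes the test of the minus against the plus difference gave 0 genes past an adjusted p of 0.05 and 216 (2.11%) at an unadjusted p under 0.05.

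Marker genes of monocytes and macrophages had the highest median of all lists with a tested gene, through pairs A and B. In bulk RNA, more cells of a type and more RNA per cell cannot be told apart. Of 17 tested markers 0 passed the adjusted threshold, 6 were higher and 0 lower at an unadjusted p under 0.05, against 0.891% higher and 1.5% lower over all genes, and the median was 0.66. The markers at that level numbered 0 without CMPKO-, CC- or pair A, and 0 in the fits without the pairing. They numbered 1 without CMPCTL-, KC- or pair B or with KC- read as a control, and 9 without CTLCMP- or pair C. In the paired fit of the 6 minus arrays alone they also numbered 9, where 755 of all genes were at that level against 244. The medians of the single pairs were 0.82, 0.71 and -0.10, so pair C showed no shift. Csf1r, the receptor for M-CSF, read 3997, 5361 and 7505 in the controls and 7067, 13628 and 7829 in the knockouts. The pair C control was as bright as the knockout of pair A, and the groups overlapped, with a difference of 0.74 ± 0.29 (95% interval 0.11 to 1.37).

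F13a1, the A chain of factor XIII, which monocytes carry, showed the same layout. It read 1823, 1396 and 5625 against 5807, 3416 and 5524, a difference of 0.97 ± 0.38. The lysosomal protein Cd68 (0.90), the pore protein Mpeg1 (0.87), the chemokine receptor Ccr2 (0.78) and the protease Ctss (0.70) were the other 4 at that level. Lgals3, Apoe, Klf4 and Cd14, also on the list, lay between -0.16 and 0.00. The summed signal of the 24 markers on the array was 28989, 39544 and 57722 in the controls and 47133, 72359 and 54710 in the knockouts. Over all 24, with no level filter, the median difference was 0.09. Without pair C the median of the tested markers was 0.97, without pair A 0.36 and without pair B 0.39. With the beta-actin 3' to 5' ratio as a covariate it was 0.70, and with the array titled KC- read as a control 0.28.

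Genes of red cell precursors were mostly lower, without any passing the adjusted threshold. Of 17 tested, 12 were lower and 0 higher in all 3 pairs, against 18.1% lower and 13% higher over all genes; 2 were lower at an unadjusted p under 0.05, against 1.5%, and the median was -0.43. The 2 became 0 without CMPCTL-, CMPKO-, CC- or pair A, and 0 under median centring, quantile scaling or without the pairing. They became 1 without KOCMP- or pair C, 4 without CTLCMP- and 3 with KC- read as a control. With array weights they numbered 6, and in the paired fit of the 6 minus arrays alone 9. Over all genes these last 2 fits gave 522 and 755 at that p, against 244. The medians of the pairs were -0.72, -0.38 and -0.13. Rhd, which encodes a Rhesus antigen, read 493, 400 and 248 against 228, 231 and 220, all knockouts below all controls, a difference of -0.63 ± 0.28 (95% interval -1.23 to -0.02). Its partner Rhag read 257, 214 and 167 against 143, 117 and 132, again with no overlap, at -0.58 ± 0.26 (95% interval -1.15 to -0.01).

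Other red cell genes were also lower on average. Ermap, a red cell membrane protein, read 4980, 11207 and 1851 against 2101, 3738 and 1449, at -1.05 ± 0.64. The carbonic anhydrase gene Car1 read 8378, 21113 and 3132 against 3175, 12184 and 2529, at -0.83 ± 0.58. Klf1, the master factor of red cell genes, was at -0.46 ± 0.51 and Epor, the erythropoietin receptor, at -0.37 ± 0.31. In all 4 genes pair C differed least, and the controls of pair C were the lowest of the controls. The same held for Rhd, with pair differences of -1.02, -0.72 and -0.15, and for Rhag, with -0.73, -0.72 and -0.28. The summed signal of the 20 markers on the array was 53765, 83279 and 30793 in the controls and 32002, 55790 and 29610 in the knockouts. With 1 array or pair left out, the list median ran from -0.57 to -0.15. The part of cell composition in these values was not tested.

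Megakaryocyte and platelet genes had the lowest median of all lists, at a similar level in the 3 pairs. Of 16 tested, 9 were lower and 0 higher in all 3 pairs, 5 were lower and 0 higher at an unadjusted p under 0.05, and 0 passed the adjusted threshold. Over all genes 18.1% were lower in all 3 pairs and 1.5% lower at that p. The genes at that p numbered 1 without CTLCMP- or pair A, 2 without CMPCTL- or KC-, and 3 without CMPKO- or pair C. They numbered 0 without the pairing or with KC- read as a control. Without pair B or with array weights they numbered 7, and in the paired fit of the 6 minus arrays alone 8. Over all genes these last 3 fits gave 301, 522 and 755 at that p, against 244. The median was -0.48, with -0.49, -0.59 and -0.41 in the pairs. Vwf, the adhesion protein von Willebrand factor, read 1557, 2108 and 4909 against 1063, 884 and 3482, a difference of -0.75 ± 0.21 (95% interval -1.21 to -0.29). Each knockout was below its own control, but the levels of the pairs lay so far apart that the groups overlapped.

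The platelet adhesion receptor for von Willebrand factor is made of several glycoproteins, and 3 of its genes were below control in each pair. Gp1bb read 635, 1040 and 1688 against 398, 442 and 1031, at -0.83 ± 0.36. Gp9 read 301, 295 and 600 against 177, 185 and 348, at -0.66 ± 0.25. Gp5 read 1815, 670 and 2487 against 1092, 407 and 1892, at -0.59 ± 0.22. Rab27b, which serves platelet granule release, was at -0.52 ± 0.24, and Itga2b, the platelet integrin alpha chain, at -0.47 ± 0.38. The chemokine gene Pf4 was nearly level at -0.09 ± 0.16, as was the transcription factor gene Fli1 at -0.01 ± 0.27. Without any 1 of the 6 arrays or 3 pairs the list median stayed between -0.54 and -0.36, and with the array titled KC- read as a control it was -0.30.

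The 8 tested endothelial markers had a median of -0.46, and 3 of them, Vwf, Esam (-0.66 ± 0.25) and Tie1 (-0.69 ± 0.29), were lower at an unadjusted p under 0.05, against 1.5% over all genes. The 3 became 1 without CC-, KC-, pair A or pair B, and 2 without CMPCTL-, CMPKO-, KOCMP- or pair C. They became 0 without the pairing or with KC- read as a control. With array weights, and in the paired fit of the 6 minus arrays alone, they numbered 5. Over all genes these last 2 fits gave 522 and 755 at that p, against 244. Vwf stands on both lists, and the adhesion gene Esam and the receptor gene Tie1 are also expressed in megakaryocytes or stem cells. The endothelial cadherin gene Cdh5 read 7.5 to 44 in all 6 arrays, below every array median. Egfl7 (607 to 1354), Eng (729 to 1652), Tek (162 to 654) and Kdr (98.9 to 303) lay above every array median. Pecam1 (19 to 326) lay on both sides. Which cells these signals come from was not tested. Egfl7, also on this list, went the other way at 0.39 ± 0.22.

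**Figure D5:**
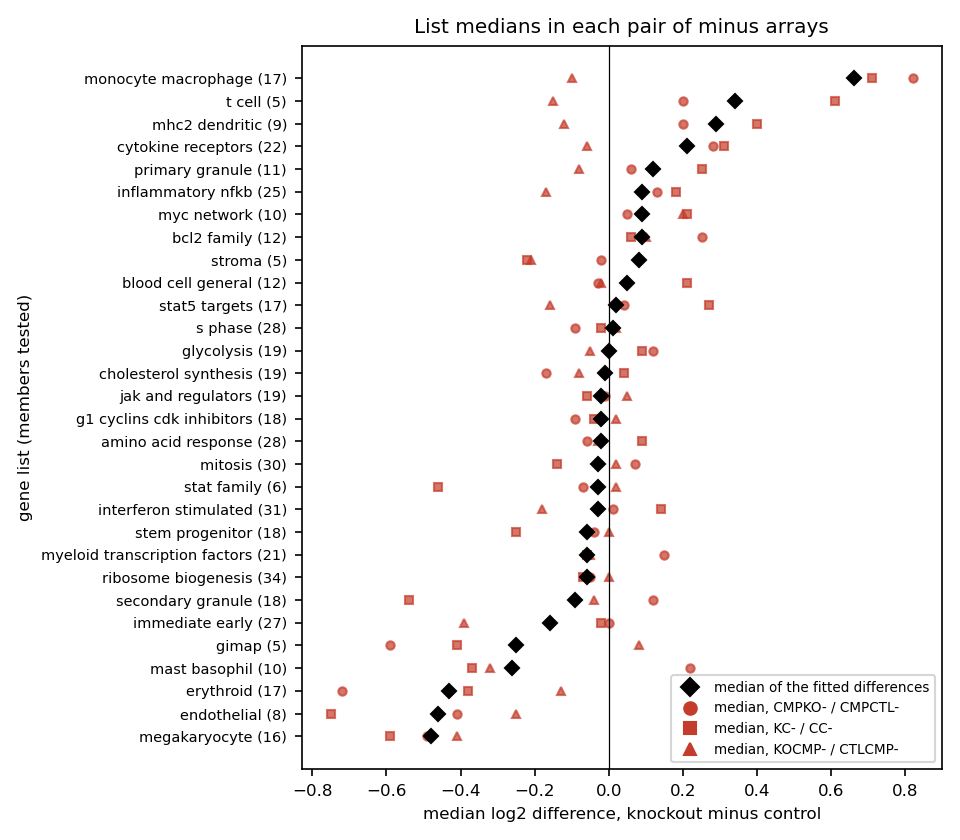
Median log2 difference between knockout and control of each gene list with at least 5 tested genes (number of genes in brackets). Black diamonds are medians of the fitted differences and red points the medians in the single pairs, by shape. Monocyte and macrophage markers lie at 0.66 with pair C at -0.10, megakaryocyte genes at -0.48 with all pairs between -0.59 and -0.41, and the lists of DNA synthesis, mitosis and ribosome production lie near 0.

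The medians of the proliferation and growth lists lay close to 0, apart from that of the immediate response genes. The 28 tested genes of DNA synthesis had a median of 0.01, from -0.22 to 0.20, and 0 had an unadjusted p under 0.05. The 30 mitosis genes had a median of -0.03, from -0.32 to 0.27, also with 0. The 34 genes of ribosome production had a median of -0.06, from -0.28 to 0.19. The 18 G1 cyclins and inhibitors had a median of -0.02 over a wider range, from -0.44 to 0.82 for Ccnd1. Genes of the immediate response to growth signals, 27 tested, had a median of -0.16, from -0.60 to 0.64, and a median of -0.39 in pair C.

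Among the tested cytokine receptors, JAK kinases and JAK regulators, 0 genes passed the adjusted threshold. Among the 19 tested JAK kinases and their regulators, 0 had an unadjusted p under 0.05, and Jak2, the kinase of the erythropoietin and thrombopoietin receptors, was at -0.20 ± 0.16. The 22 tested cytokine receptor genes had a median of 0.21, from -0.37 to 1.01 for Il1r1, where pair B gave 3.07. Of these 22, 3 were higher and 0 lower at that level, against 0.891% higher and 1.5% lower over all genes. Besides Csf1r these were Il6ra, the interleukin 6 receptor, at 0.61 ± 0.26, and the interferon receptor gene Ifnar1 at 0.43 ± 0.19. Ifnar1 read 457, 504 and 641 against 554, 848 and 811, above control in every pair. Il6ra was higher in pairs A and B alone, and it came to -0.00 when its probe sets were averaged. The shared receptor chain of interleukin 3 and GM-CSF, Csf2rb, was at -0.12 ± 0.27, and Kit at -0.26 ± 0.24.

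Stem and progenitor genes, 18 tested, had a median of -0.06. Cd34 was the 1 member with an unadjusted p under 0.05, at 6922, 2096 and 7148 against 8919, 4196 and 8105, a difference of 0.51 ± 0.22. Genes of the first neutrophil granules had a median of 0.12, with the protease inhibitor gene Cst7 highest at 0.64 ± 0.26. Genes of the later granules were at -0.09, where pair B gave -0.54. The 4 tested B cell markers had a median of 0.49, with 0.28, 1.13 and 0.20 in the pairs, and 0 had an unadjusted p under 0.05.

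The genes with the smallest unadjusted p in each direction after Stat5a and Stat5b did not pass the adjustment either. Stat3 and Vwf, given above, were among them. Klf9, a zinc finger factor known to respond to glucocorticoids, read 1804, 5613 and 2368 against 1127, 1897 and 1710, at -0.89 ± 0.22. Ces2g, a carboxylesterase, read 1208, 1858 and 421 against 441, 539 and 324, at -1.15 ± 0.30. Ptger3, a prostaglandin E receptor, read 1629, 1871 and 1213 against 745, 792 and 984, with no overlap, at -0.87 ± 0.24. Pair C was the smallest difference in each of these 3 genes. Pls1, an actin bundling protein, was at -0.90 ± 0.25.

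Myh10, a non-muscle myosin heavy chain, had the lowest difference of the named genes after Stat5a and Stat5b, and did not pass the test. It read 1019, 1033 and 444 in the controls and 209, 368 and 191 in the knockouts. All knockouts were below all controls, at -1.54 ± 0.44 (95% interval -2.50 to -0.58), and the plus arrays gave -1.46 ± 0.44. Myh10 was named after its values were seen.

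On the higher side, Ager, the receptor for glycated proteins, read 72.8, 3.23 and 17.4 in the controls and 126, 182 and 82.3 in the knockouts. The groups did not overlap, at 1.47 ± 0.34 (95% interval 0.72 to 2.22), but 2 of the 3 controls lay well below their array medians. In the plus arrays Ager was at -0.15 ± 0.34, and the minus and plus differences were 1.62 ± 0.49 apart (limma adjusted p = 0.954). Tmem243 was at 0.95 ± 0.24 and Trps1, a repressor of the GATA family, at 0.76 ± 0.21. Pmaip1, the cell death gene NOXA, read 123, 57.7 and 433 against 346, 173 and 472, at 0.86 ± 0.26, with pair C nearly level at 0.12.

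The remaining list members with an unadjusted p under 0.05 were few. Asns, which makes asparagine, read 1150, 1256 and 1426 against 644, 661 and 1122, with no overlap, at -0.68 ± 0.20, and was level in the plus arrays at 0.01. The collagen gene Col1a2 (-0.66), the hexokinase gene Hk1 (-0.53) and the fatty acid desaturase gene Scd2 (-0.33) were lower in every pair. The tetraspanin gene Cd53 (0.68), the kinase gene Zap70 (0.70) and the MAX partner gene Mxd4 (0.45) were higher on average.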

How the data were processed

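For all 12 arrays the authors deposited one table of probe set intensities on a linear scale, computed with MAS5 per the submitters' processing notes. The version and scaling target are not given in the sources used here. The 2% trimmed mean of every array was 500. Arrays have no counting depth, and their number limits the precision.

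Arrays were grouped by title. Of 45101 probe sets, 34958 had 1 gene symbol, 932 had several and 9211 had none listed, and 34754 matched GRCm38.p6 by gene number. Values were log2(signal + 32), and a gene was its brightest probe set by mean. Of 18195 genes, 10583 with a mean of at least 6.76 were tested. The p-values were adjusted over these, and 368 genes not placed on autosomes were left out of the text. limma 3.58.1 in R 4.3.3 fitted all 12 arrays with 4 groups and the title form as a block, so a difference is the mean of 3 pair differences and the plus arrays add only to the estimate of spread. Deviations from group means correlated at 0.7154, 0.7728 and 0.6997 within a form and at -0.641 to 0.2763 between forms in the minus arrays, which is why the pairing by title form was kept. Single probe sets were fitted in the same way over all probe sets. The script was tested on simulated data.

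The members and gene lists were chosen with earlier results of these data known. Named were Stat5a and Stat5b, the tested members of the STAT family and target lists, the 5 smallest p-values in each direction with 1 sign in all 3 pairs, and list members with an unadjusted p under 0.05 (up to 3 per list, all for the monocyte, red cell and megakaryocyte lists). Other genes named by value in those lists were chosen after their values were seen.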

Additional observations from a re-analysis of the deposited data

How the results depend on the processing

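The alternatives were the added constant, centring and quantile scaling, the level filter, averaging of probe sets, the blocks, array weights, the variance prior, a beta-actin covariate, each array or pair left out, the array titled KC- read as a control, and, added after seeing the data, a test of all 45101 probe sets. The 2 called genes, both lower, were 2 under every alternative except 1. With the array titled KC- as a control 0 genes were called and 0 lower, Stat5b was at -4.02 and Stat5a at -3.01 (limma adjusted p = 0.999 for both). Under that reading 125 genes had an unadjusted p under 0.05, 56 higher and 69 lower. The median of the STAT5 targets was then -0.12, that of the red cell genes -0.58 and that of the endothelial markers -0.33. With 1 array or pair left out, Stat5a ranged from -4.12 to -3.61 and Stat5b from -4.91 to -4.12. The replicate block fitted on the 6 minus arrays alone gave 2 called genes, as did the fits with no replicate block, while genes at an unadjusted p under 0.05 numbered 755 and 46 to 64, against 244. Centring on array medians moved the median of all genes from -0.01 to 0.05, and the split of those genes from 91 higher and 153 lower to 150 and 100.

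Of 1374 values of 58 named genes under alternatives, 41 changed sign, in 13 genes, none of them called. Reading KC- as a control gave Dusp5 -0.61, Osm 0.08, Myc -0.12, Mcl1 -0.12, Socs2 0.04 and Pim1 -0.39. Quantile scaling gave Mcl1 -0.01 and Pim1 -0.03, array weights Stat6 0.00 and Pim1 -0.08, centring Spry1 0.02 and Ccnd3 0.02, an added constant of 1 Stat2 -0.20, and averaged probe sets Il6ra -0.00. With 1 array or pair left out, the ranges were -0.26 to 1.21 for Dusp5, -0.04 to 0.41 for Myc, -0.08 to 0.15 for Mcl1, -0.28 to 0.04 for Socs2, -0.22 to 0.12 for Ccnd2, -0.18 to 0.06 for Stat6, -0.61 to 0.36 for Socs3, -0.32 to 0.27 for Spry1, -0.27 to 0.14 for Ccnd3, -0.29 to 0.24 for Pim1 and -0.40 to 0.39 for Stat2. The cause was not tested.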
